A study of Mus musculus with 24 samples.

Results

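The ErbB receptors and their ligands were followed in fasted mouse liver. The set held 10 of the 54532 genes listed with counts. They were the receptor genes Egfr, Erbb2 and Erbb3 and the ligand genes Nrg1, Nrg4, Egf, Areg, Btc, Hbegf and Tgfa, and each was found by its symbol. Nrg1 was chosen by its counts, because it was nearly absent in controls and higher in the double knockout. Its levels in those libraries are therefore given as a description without a test, and the comparison of DKO with ff;ff is given for the whole set only as a count from which nothing is read.

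The livers came from 24 male mice fasted for 24 h, 4 in each of 6 groups, and the methods give 8 to 10 weeks as the age for fasting studies. Rab30KO mice lacked exon 4 of Rab30 in every tissue, and Rab30 Ctrl were their wild-type littermates. Rab30L-/-, Cpt2L-/- and DKO mice carried floxed Rab30, floxed Cpt2 or both together with Cre under the albumin promoter. This promoter was used to delete the genes in hepatocytes. The ff;ff mice carried both floxed genes without Cre and were littermates of the DKO mice only, so the Rab30L-/- and Cpt2L-/- mice were compared with controls that are not stated to be littermates. Rab30 encodes a small GTPase of the Golgi, and Cpt2 encodes a mitochondrial enzyme needed for the oxidation of long-chain fatty acids.

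ErbB proteins are receptor tyrosine kinases that pair at the cell surface when a ligand binds, and then signal through the Ras and ERK kinases and through phosphatidylinositol 3-kinase. Egfr binds Egf, Tgfa, Areg, Btc and Hbegf, Erbb3 binds neuregulins such as Nrg1 and has little kinase activity of its own, and Erbb2 has no known ligand and serves as the partner of the others. Nrg4 binds Erbb4 and is best known as a factor secreted by brown fat that acts on the liver. In the liver, Egfr and its ligands are known for their part in regeneration, and most ligands are made as membrane proteins that proteases release.

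All ligands of the family carry an EGF-like module with 6 cysteines, and this module is the part that binds the receptor. The coding stretch from the first to the last of these cysteines is shown for the ligand genes whose levels are described in most detail below, with the cysteine codons in capitals, so that the shared pattern can be seen. The sequences were read from GENCODE M21 transcripts, an annotation of GRCm38, and run over coding exons on the strand of the gene.
Nrg1-206: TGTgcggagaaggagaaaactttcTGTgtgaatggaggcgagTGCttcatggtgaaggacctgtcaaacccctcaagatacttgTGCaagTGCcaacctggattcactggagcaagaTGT
Nrg1-201: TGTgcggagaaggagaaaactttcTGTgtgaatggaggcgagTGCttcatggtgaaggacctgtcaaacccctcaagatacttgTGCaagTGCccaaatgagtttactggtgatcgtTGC
Nrg4-204: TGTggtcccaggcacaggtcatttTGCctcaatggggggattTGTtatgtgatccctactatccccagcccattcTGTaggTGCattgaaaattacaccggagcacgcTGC
Areg-201: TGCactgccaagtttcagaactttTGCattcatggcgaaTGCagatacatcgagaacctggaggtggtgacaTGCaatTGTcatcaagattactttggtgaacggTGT
Btc-201: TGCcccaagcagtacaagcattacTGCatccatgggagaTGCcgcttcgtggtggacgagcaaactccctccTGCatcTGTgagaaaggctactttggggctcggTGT
Tgfa-201: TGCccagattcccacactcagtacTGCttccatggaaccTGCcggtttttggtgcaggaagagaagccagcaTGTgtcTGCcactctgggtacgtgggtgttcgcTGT

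The Nrg1 gene encodes its module in alternative forms. Of the 12 coding Nrg1 transcripts with the module, 4 carried the form of Nrg1-206 and 8 that of Nrg1-201. Both forms shared their first 94 bases, and 12 of the 120 bases differed, all within the last 26. The counts are summed over each gene, so they do not tell which form was present.

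Library totals lay between 11801027 and 24497738 counts (median 14358966). The counts of the targeted genes followed some of the labels and not others. Rab30 was at 5.47 to 29.8 CPM (each count as a share of its library, with library sizes adjusted by TMM) in the libraries labelled Rab30 Ctrl and Rab30KO, at 26.4 to 45.5 in ff;ff and at 10.2 to 26.5 in Rab30L-/-. It was at 121 to 186 CPM in Cpt2L-/-, where Rab30 is intact, and at 102 to 232.2 CPM in the libraries labelled DKO, which overlapped them. Cpt2 was at 94.9 to 165 CPM in Cpt2L-/-, at 97.1 to 125 CPM in DKO and at 129 to 142 CPM in ff;ff. A count over the whole gene includes reads outside a deleted exon and is no check of the deletion, so each library below is described by its label.

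The members differed widely in level. Deposited FPKM values, which divide counts by gene length and library size, allow genes to be set side by side. Erbb3 and Egfr were the most abundant, with means over the 24 livers of 28.7 and 27.1 FPKM. Their order differed between groups, since mean Egfr was above mean Erbb3 in ff;ff, Rab30L-/- and Rab30KO and below it in the other 3 groups. Nrg4 was at 5.40 FPKM and Tgfa at 3.86 FPKM, and the remaining members had means under 1 FPKM, from Btc at 0.522 FPKM down to Egf at 0.134 FPKM. Erbb2 was at 0.279 FPKM, so the receptor RNA of these livers was mostly that of Egfr and Erbb3.

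**Figure D1:**
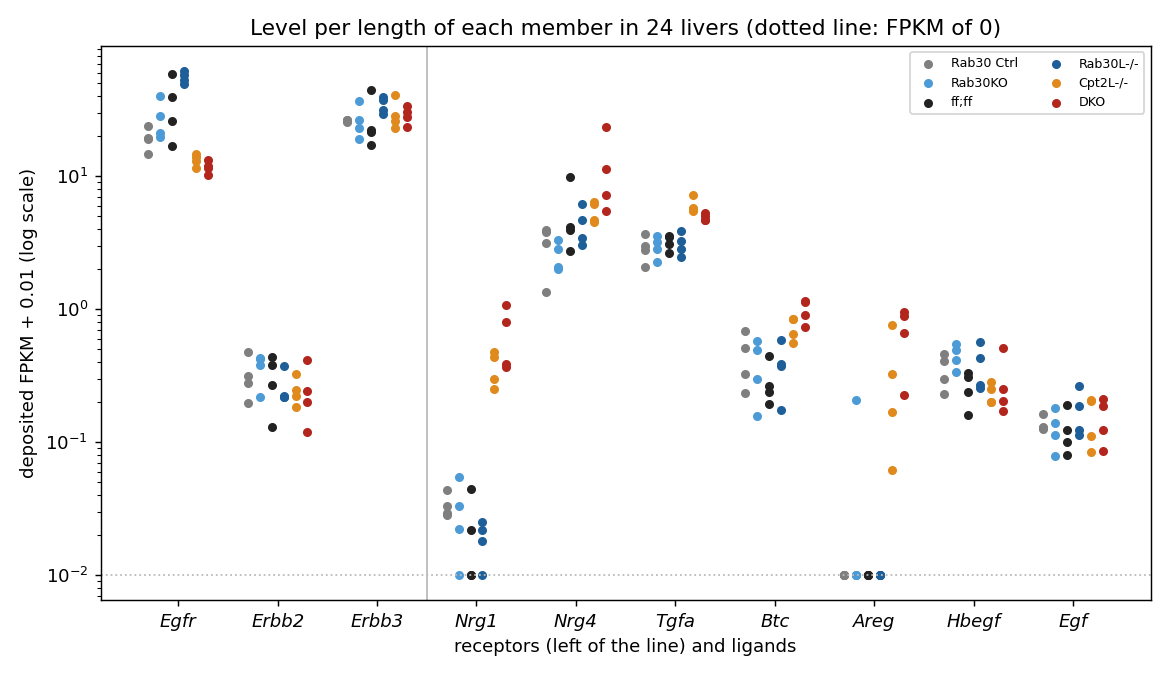
Deposited FPKM of each member in each of the 24 livers, plotted as FPKM + 0.01 on a log scale, with receptors left of the vertical line, ligands to the right, and colours for the 6 groups. Erbb3 and Egfr have the highest means over the 24 livers, 28.7 and 27.1 FPKM, with Egfr the higher in 3 of the 6 groups, and Nrg1 and Areg reach the dotted line of 0 FPKM only in groups with intact Cpt2.

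Egfr (ENSMUSG00000020122), the receptor of most ligands in this set, lies on chromosome 11 of GRCm38 from 16752203 to 16918158 on the plus strand. Its level was 164.1, 146, 155 and 129 CPM in the 4 Cpt2L-/- livers and 128, 115, 147 and 140 CPM in the 4 DKO livers. It was 558, 645, 606 and 689 CPM in Rab30L-/- and 449, 192, 661 and 297 CPM in ff;ff. Each liver without Cpt2 was thus below each liver of these groups, and the ff;ff livers spread far more than the others. Rab30 Ctrl livers ranged from 171 to 271 CPM and Rab30KO livers from 222 to 434 CPM, above every liver without Cpt2 and below every Rab30L-/- liver.

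In Cpt2L-/- against ff;ff, Egfr fell by 1.41 on the log2 scale (standard error 0.31, adjusted p = 0.00664, by the quasi-likelihood test of edgeR, adjusted over all genes after Benjamini and Hochberg). In DKO against Rab30L-/-, which compares the same loss of Cpt2 in the absence of Rab30, it fell by 2.26 (standard error 0.14, edgeR adjusted p = 4.89e-06). Between the single knockouts, Cpt2L-/- against Rab30L-/-, it fell by 2.08 (standard error 0.14, edgeR adjusted p = 1.13e-06). The single knockouts differ in both Cpt2 and Rab30, here and for the members below. These comparisons share libraries, so they are not separate evidence. Egfr did not pass the test in Rab30L-/- against ff;ff, where the log2 fold change was 0.67 (standard error 0.31, edgeR adjusted p = 0.461), although limma-voom with sample quality weights gave 1.29 with an adjusted p of 0.0434. In DKO against Cpt2L-/- the log2 fold change was -0.18 (standard error 0.12, edgeR adjusted p = 0.403).

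The interaction asks whether the change from Cpt2L-/- to DKO differs from the change from ff;ff to Rab30L-/-. For Egfr it was -0.85 (standard error 0.35, edgeR adjusted p = 0.17) and did not pass the threshold. It rested on ffff242, the highest ff;ff liver, and was -1.2 with an adjusted p of 0.0209 without that liver.

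Erbb3 (ENSMUSG00000018166; chromosome 10, 128567523 to 128589652, minus strand), the neuregulin receptor, was not past the thresholds in any comparison. The Rab30KO livers had the lowest group mean, 155 ± 42.8 CPM (SD, n = 4), the Rab30L-/- livers had the highest, 206 ± 26.9 CPM (SD, n = 4), and neighbouring groups in the order of means overlapped throughout. In Cpt2L-/- against ff;ff the log2 fold change of Erbb3 was 0.16 (standard error 0.28, edgeR adjusted p = 0.733). Erbb2 (ENSMUSG00000062312; chromosome 11, 98412470 to 98437716, plus strand) had 7 to 51 counts per library. Its group means lay between 1.2 and 1.80 CPM, with every neighbouring pair of groups overlapping. Its largest log2 fold change between groups, DKO against ff;ff aside, was -0.34 (standard error 0.39, edgeR adjusted p = 0.573) in Cpt2L-/- against ff;ff. Mien1, on the opposite strand, overlaps Erbb2 and had 22 to 280 counts, and the counting is not stated to use strand.

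With Egfr lower and Erbb3 within its spread, the ratio of the receptors differed between livers. The ratio of Egfr to Erbb3 FPKM was 1.54 to 1.80 in Rab30L-/- and 0.755 to 1.84 in ff;ff. It was 0.364 to 0.601 in Cpt2L-/- and 0.343 to 0.515 in DKO. Rab30KO livers were at 0.774 to 1.51 and Rab30 Ctrl livers at 0.559 to 0.919, so every Rab30 Ctrl liver also had more Erbb3 than Egfr, and 1 of them, WT952, lay within the Cpt2L-/- range. On the log2 scale the difference was -1.49 for Cpt2L-/- against ff;ff and -1.98 for DKO against Rab30L-/-. An exact two-sided permutation test gave p = 0.0286 for each, the smallest that 4 against 4 allows, and 0.0572 after adjustment over 6 comparisons. For DKO against Cpt2L-/- the difference was -0.16 (exact permutation p = 0.514).

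Nrg1 (ENSMUSG00000062991), which encodes a ligand of Erbb3, spans 1069.5 kb of chromosome 8 from 31814551 to 32884029 on the minus strand. It had 46, 39, 68 and 76 counts in the Cpt2L-/- livers, which is 2.93, 2.49, 4.34 and 4.71 CPM, and the DKO livers were at 3.85, 3.65, 8.09 and 11.3 CPM. The Rab30L-/- livers had 2, 1, 3 and 0 counts and the ff;ff livers 4, 2, 0 and 0. Rab30 Ctrl livers had 3 to 6 counts and Rab30KO livers 0 to 6. The gap between the DKO livers and the controls is what chose Nrg1, while the Cpt2L-/- livers, which the choice did not use, were all above the Rab30L-/- livers.

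The Cpt2L-/- and Rab30L-/- livers differ in both genes, so losing Cpt2 and losing Rab30 cannot be told apart between them. Theirs is still the only comparison of Nrg1 free of the libraries that chose it. In it Nrg1 rose from 0.0899 ± 0.0668 CPM (SD, n = 4) to 3.62 ± 1.07 CPM (SD, n = 4), and an exact two-sided permutation test of its CPM, which needs no filter, gave p = 0.0286, the smallest that 4 against 4 allows. The fitted log2 fold change was 5.14 (standard error 0.49). Nrg1 passed the filter on low counts only through the Cpt2L-/- livers, so its call by edgeR is not used as support. The summed counts were 229 against 6, a ratio of 37.8 after scaling to library size, with an exact 95% interval of 17.1 to 104 that covers counting error only. Leaving out any 1 of the 8 livers kept the log2 fold change of Nrg1 between 4.81 and 5.38. Of the DKO livers, the 2 highest for Nrg1, DKO247 and DKO943, exceeded every Cpt2L-/- liver while DKO232 and DKO233 lay within their range.

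Areg (ENSMUSG00000029378), which encodes amphiregulin, an Egfr ligand, lies on chromosome 5 from 91139599 to 91148432 on the plus strand. It had 14, 6, 3 and 1 counts in the Cpt2L-/- livers and 15, 4, 12 and 24 in the DKO livers. It had 0 counts in all 12 livers of Rab30 Ctrl, ff;ff and Rab30L-/-, and 3 counts in a single Rab30KO liver. A group total of 0 allows up to 3 counts, which is 0.0521 CPM over the ff;ff livers and 0.048 CPM over the Rab30L-/- livers. Against this limit the Areg level was 7.29-fold higher in Cpt2L-/- than in ff;ff and 17.5-fold higher in DKO than in Rab30L-/-. These folds take the 24 Cpt2L-/- and 55 DKO counts as exact, so they are not lower bounds. They fell to 4.04-fold without Cpt2164, which held 14 of those 24 counts, and to 10.8-fold without Rab30cff979. The gene failed the filter on low counts in these comparisons, so it was compared by an exact two-sided permutation test of its CPM, which gave p = 0.0286 for each of Cpt2L-/- against ff;ff, DKO against Rab30L-/- and Cpt2L-/- against Rab30L-/-, and 0.0572 after adjustment over 6 comparisons. Between DKO and Cpt2L-/- the groups overlapped, and the log2 fold change of Areg was 1.08 (standard error 0.64, edgeR adjusted p = 0.35), and 1.91 without Cpt2164.

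The 100 bases before the annotated start of Areg (RefSeq, GRCm38.p6, chr5:91139499-91139598, plus strand) are shown because Areg went from no counts to detection. The capitals mark matches on either strand to the cyclic AMP response element TGACGTCA and the TATA box TATAAA, which begin 61 and 31 bases before the start.
Areg upstream: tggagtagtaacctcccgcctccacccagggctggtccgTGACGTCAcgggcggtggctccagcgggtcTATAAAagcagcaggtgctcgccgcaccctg
Windows of 300 bases were on hand for 7 of the 10 members. Areg was the member whose window held TGACGTCA, which 1.79% of 32851 such windows hold, and TATAAA, which 13.6% hold. A match of letters is no evidence that a factor binds there.

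Btc (ENSMUSG00000082361), which encodes betacellulin, a ligand of Egfr and Erbb4, lies 208.8 kb from Areg, at 91357261 to 91402994 on the minus strand of chromosome 5. It was at 2.42, 3.77, 3.70 and 2.85 CPM in the Cpt2L-/- livers and at 3.99, 3.26, 5.09 and 5.18 CPM in the DKO livers. The ff;ff livers were at 1.96, 1.02, 1.13 and 0.833 CPM and the Rab30L-/- livers at 1.68, 0.73, 1.67 and 2.58 CPM. The DKO livers were above all livers of both these groups. Btc rose in Cpt2L-/- against ff;ff, by 1.40 on the log2 scale (standard error 0.33, edgeR adjusted p = 0.00716). It rose by a like amount in DKO against Rab30L-/-, 1.37 (standard error 0.33, edgeR adjusted p = 0.00993). In Cpt2L-/- against Rab30L-/- the groups overlapped through Rab30cff980, and the log2 fold change of 0.92 (standard error 0.34, edgeR adjusted p = 0.0537) passed the threshold only without that liver, at 1.2 with an adjusted p of 0.0264, or under other settings.

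Tgfa (ENSMUSG00000029999; chromosome 6, 86195223 to 86275719, plus strand), the transforming growth factor alpha that activates Egfr, was the more abundant of the ligands that rose. Its level was 36.3, 47.0, 35.3 and 37.0 CPM in Cpt2L-/-, and 33.5, 30.2, 30.1 and 33.2 CPM in DKO. The other 16 livers ranged from 13.7 to 25.0 CPM, so that the 6 groups fell into 3 separate levels. The log2 fold change of Tgfa was 0.93 (standard error 0.15, edgeR adjusted p = 7.38e-04) in Cpt2L-/- against ff;ff, 0.65 (standard error 0.15, edgeR adjusted p = 0.00627) in DKO against Rab30L-/- and 0.96 (standard error 0.16, edgeR adjusted p = 6.09e-04) in Cpt2L-/- against Rab30L-/-. Although no DKO liver reached a Cpt2L-/- liver, the log2 fold change of -0.31 between them (standard error 0.12, edgeR adjusted p = 0.173) did not pass the threshold.

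Nrg4 (ENSMUSG00000032311; chromosome 9, 55220222 to 55326844, minus strand), the ligand of Erbb4, was uneven among the DKO livers, at 32.6, 43.4, 141 and 70.8 CPM. The Cpt2L-/- livers were at 26.9 to 38.4 CPM and the Rab30L-/- livers at 18.4 to 36.4 CPM. The ff;ff livers were at 16.7, 23.7, 59.6 and 25.1 CPM. The log2 fold change in DKO against Rab30L-/- was 1.44 (standard error 0.48, edgeR adjusted p = 0.0542) and fell short of the threshold. Without DKO247, the highest liver, it was 0.89 and again short of it, and without DKO232 it was 1.69 (adjusted p = 0.0257). Of 6 other settings, 2 called it, with adjusted p of 0.0174 in one fit over all 24 libraries and 0.0196 by DESeq2. In DKO against Cpt2L-/- it was 1.13 (standard error 0.43, edgeR adjusted p = 0.179), and 0.55 without DKO247. In Cpt2L-/- against ff;ff it was 0.07 (standard error 0.35, edgeR adjusted p = 0.907), but 0.59 with an adjusted p of 0.0371 without ffff242, the highest ff;ff liver. Fbxo22 overlaps Nrg4 on the opposite strand and had 442 to 1072 counts, so that some reads may belong to either gene.

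Hbegf (ENSMUSG00000024486; chromosome 18, 36504929 to 36515805, minus strand), the heparin-binding ligand of Egfr, and Egf (ENSMUSG00000028017; chromosome 3, 129677565 to 129755316, minus strand) stayed low in all groups. Hbegf had 4 to 32 counts per library and group means of 0.522 to 1.02 CPM. Among the pairwise comparisons it passed the filter only in Rab30KO against Rab30 Ctrl, where the log2 fold change was 0.35 (standard error 0.39, edgeR adjusted p = 1). By the exact permutation test of its CPM, the 6 comparisons gave p from 0.114 to 0.743. Egf had 12 to 37 counts per library and group means of 1.28 to 1.81 CPM, with all neighbouring groups overlapping. Its largest log2 fold change between groups was 0.53 (standard error 0.41, edgeR adjusted p = 0.676), in Rab30L-/- against ff;ff.

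**Figure D2:**
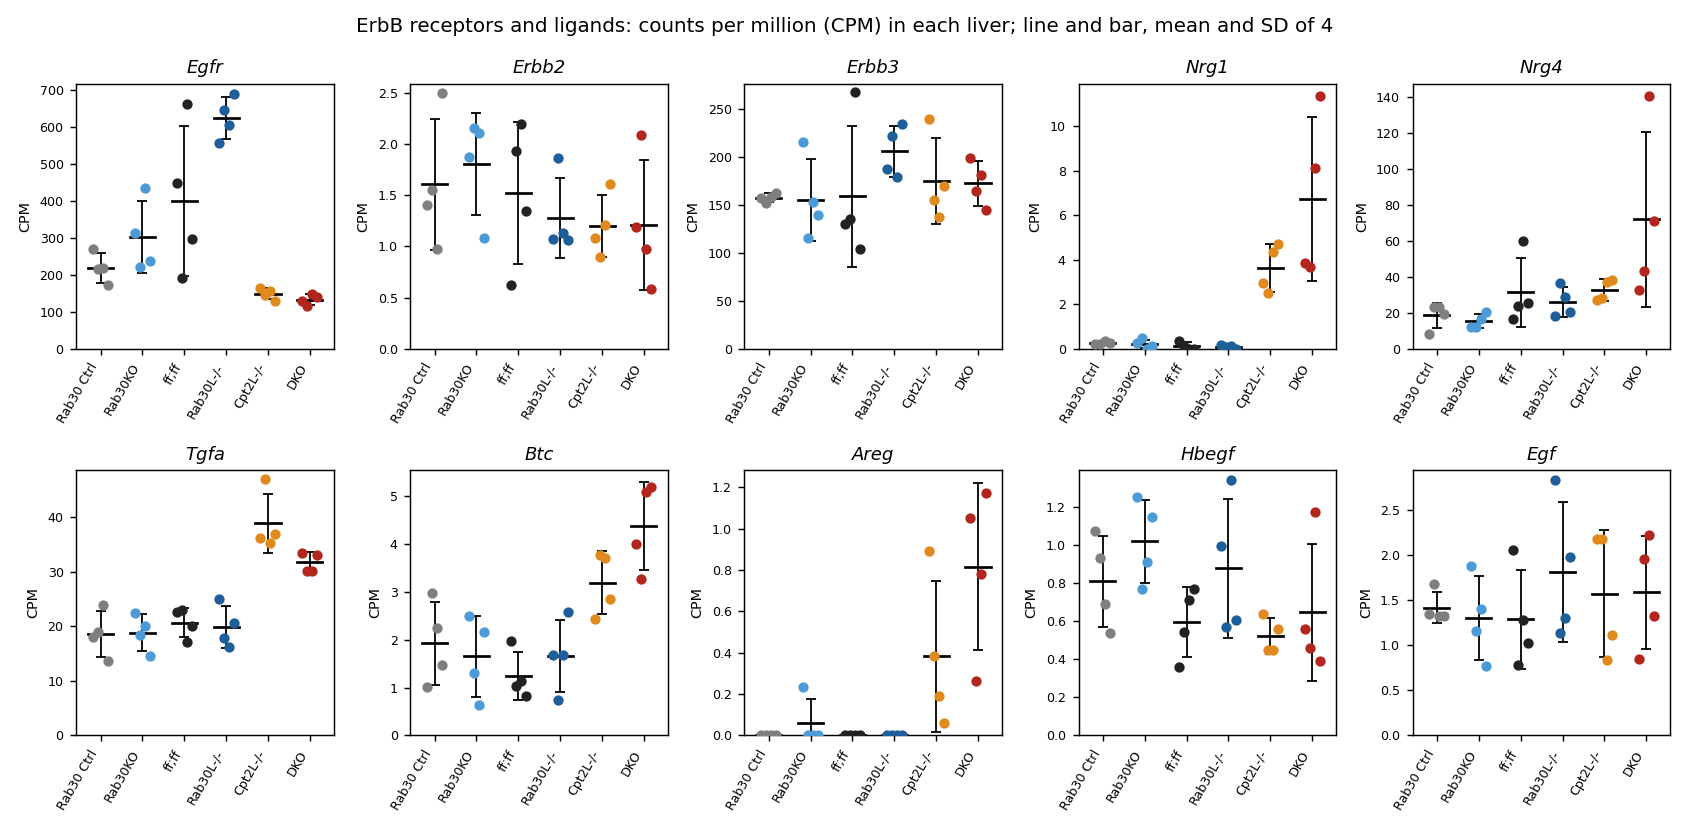
CPM of each member in each liver (points) by group, with the mean (line) and SD (bar) of 4 livers and each vertical axis starting at 0. Egfr lies lowest in Cpt2L-/- and DKO, at 115 to 164.1 CPM, where the group means of Nrg1, Tgfa, Btc and Areg are highest though Areg and Btc overlap other groups, and Nrg4 in DKO is spread from 32.6 to 141 CPM.

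Summed over the 7 ligands, FPKM was 7.004 to 13.2 in ff;ff, 7.70 to 9.48 in Rab30L-/-, 12.3 to 13.7 in Cpt2L-/- and 13.2 to 31.5 in DKO. Nrg4 and Tgfa together made up 78.9% to 94.9% of this sum in every liver. Nrg1 made up 1.76% to 3.37% of it in Cpt2L-/-, 2.52% to 5.40% in DKO and at most 0.801% in the other 16 livers.

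**Figure D3:**
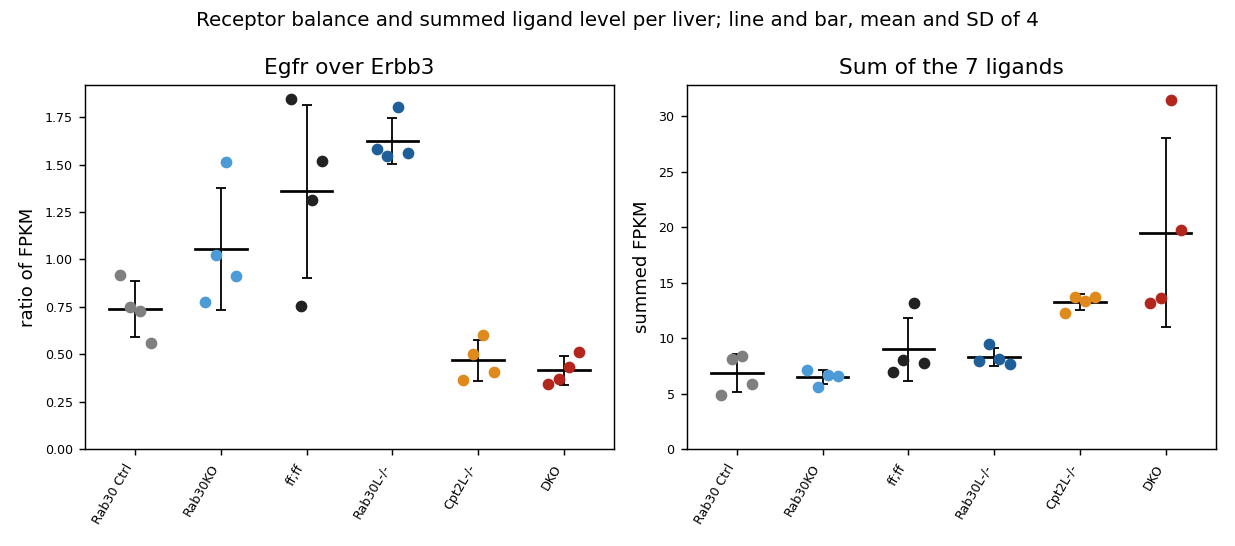
The ratio of Egfr to Erbb3 FPKM (left) and the summed FPKM of the 7 ligands (right) in each liver, with the mean (line) and SD (bar) of 4 livers per group. All Cpt2L-/- and DKO livers lie at a receptor ratio of 0.601 or less, as does the Rab30 Ctrl liver WT952 at 0.559, and the highest ligand sum, 31.5 FPKM, is that of a DKO liver.

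Counted over the set, a few members changed between livers labelled with and without Cpt2, and none passed the edgeR test between livers labelled with and without Rab30. Leaving out Nrg1, 3 of the 7 other members tested were past the thresholds (adjusted p under 0.05 and at least 1.2-fold) in Cpt2L-/- against ff;ff, where 23.8% of all genes tested were. The same count, 3 of 7, was reached in DKO against Rab30L-/-, where 30.7% of all genes were past them. In Cpt2L-/- against Rab30L-/- it was 2 of 7, or 28.6%, against 31.4% of all genes. The median log2 fold change of the members other than Nrg1 was 0.16 in Cpt2L-/- against ff;ff and -0.10 in DKO against Rab30L-/-, and that of all genes was 0.00 and -0.01, so that the members did not move one way as a set. In DKO against ff;ff, the contrast that chose Nrg1, 3 of the 7 other members lay past the thresholds beside 16.1% of all genes, and nothing is read from that count.

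No member was past the thresholds by edgeR in Rab30KO against Rab30 Ctrl, with 0 of 8 tested against 0.022% of all genes, nor in Rab30L-/- against ff;ff, with 0 of 7 against 0.479%. In both, 0 members had an unadjusted p under 0.05, and DESeq2's Wald test also called 0, while limma-voom called Egfr in the latter as given above. In DKO against Cpt2L-/- the count was 0 of 8 members other than Nrg1 by edgeR, by DESeq2 and by limma-voom, against 2.71% of all genes by edgeR, and 2 of them, Nrg4 and Tgfa, had an unadjusted p under 0.05. For the interaction it was 0 of 9 by edgeR and by DESeq2, against 4.06% of all genes, with an unadjusted p under 0.05 for Egfr and Nrg4, and limma-voom called Egfr.

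**Figure D4:**
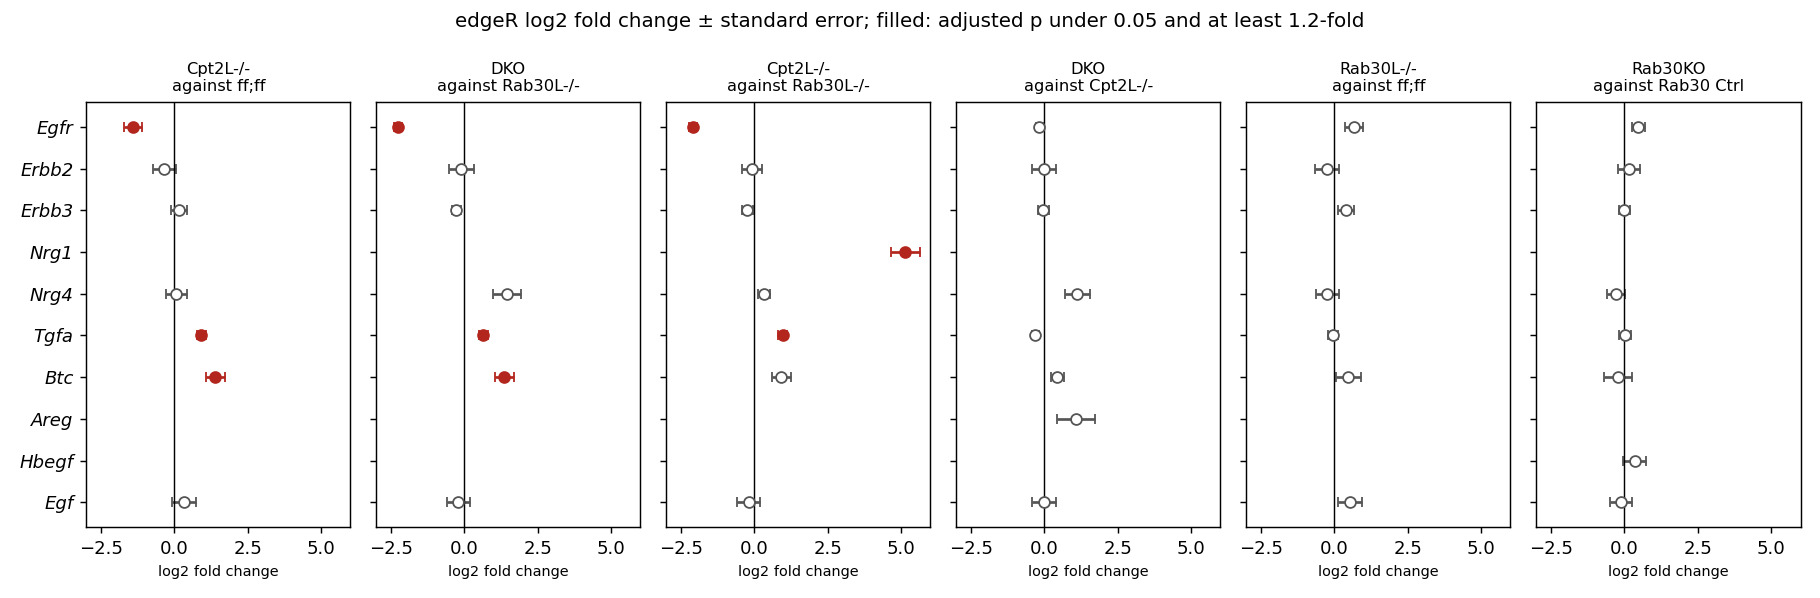
Log2 fold change of each member tested (point) with its standard error (bar) in 6 comparisons, filled where the adjusted p was under 0.05 with at least a 1.2-fold change. Nrg1 is shown only in Cpt2L-/- against Rab30L-/-, at 5.14, where it passed the filter through the Cpt2L-/- livers alone, and Egfr is lower in the 3 leftmost comparisons, by 1.41 to 2.26.

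Other ErbB genes were scarce. Of Ereg, Epgn, Nrg2, Nrg3 and Erbb4, at most 1 passed the filter in a comparison and none was past the thresholds by edgeR. Nrg3 had 0 counts in all libraries, Epgn had 1 count in 1 library, Nrg2 had at most 3 counts, Ereg at most 13 and Erbb4, the receptor of Nrg4, 4 to 31.

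Genes that act with the receptors were counted from 4 further lists, to be read beside the 23.8% of all genes past the thresholds in Cpt2L-/- against ff;ff and the 30.7% in DKO against Rab30L-/-. Of 7 tested genes of ligand processing, 1 rose in Cpt2L-/- against ff;ff, and 2 rose in DKO against Rab30L-/-. The larger change was that of Rhbdf1, an inactive rhomboid protein that guides the ligand-releasing protease Adam17 to the cell surface. Rhbdf1 was at 20.3 to 27.5 CPM in Cpt2L-/- and 5.44 to 10.1 CPM in ff;ff, and rose by 1.49 on the log2 scale (standard error 0.21, edgeR adjusted p = 2.14e-04). It also rose in DKO against Rab30L-/-, by 1.36 (standard error 0.20, edgeR adjusted p = 6.77e-04), where Bace1, a protease that cuts Nrg1, rose by 0.49 (standard error 0.13, edgeR adjusted p = 0.0155).

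Of 16 genes of feedback and receptor turnover, 2 rose and 4 fell in Cpt2L-/- against ff;ff, and 1 rose and 3 fell in DKO against Rab30L-/-, which is above the share of all genes in the former and below it in the latter. Lrig1, which promotes the degradation of ErbB receptors, fell by 0.84 (standard error 0.15, edgeR adjusted p = 0.00148) in the former, and Socs4, an inhibitor of Egfr, fell by 0.72 (standard error 0.13, edgeR adjusted p = 0.00166). In the latter the larger changes were those of Spry4, an inhibitor of the ERK pathway, which fell by 1.54 (standard error 0.33, edgeR adjusted p = 0.00523), and Cblb, a ubiquitin ligase, which rose by 1.18 (standard error 0.17, edgeR adjusted p = 5.80e-04). The list therefore held changes in both directions.

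Of 31 adaptors and kinases, 4 rose and 2 fell in Cpt2L-/- against ff;ff, and 9 rose and 4 fell in DKO against Rab30L-/-. Src, a tyrosine kinase, rose by 1.56 (standard error 0.35, edgeR adjusted p = 0.0052) and 1.25 (standard error 0.24, edgeR adjusted p = 0.00261), and Pik3r1, the regulatory subunit of phosphatidylinositol 3-kinase, fell by 1.03 (standard error 0.14, edgeR adjusted p = 2.33e-04) in the first of these comparisons. Nras rose by 0.85 (standard error 0.12, edgeR adjusted p = 5.61e-04) in the second. Of 13 tested early targets of the ERK pathway, 5 rose and 1 fell in Cpt2L-/- against ff;ff, and 4 rose and 3 fell in DKO against Rab30L-/-. In the former Ier3, an early response gene, rose by 2.06 (standard error 0.53, edgeR adjusted p = 0.0133) and Dusp5, a phosphatase of ERK, by 1.69 (standard error 0.34, edgeR adjusted p = 0.00318). Ier3 was low and its groups overlapped, at 1.28 to 7.98 CPM in Cpt2L-/- and 0.357 to 1.41 CPM in ff;ff. In the latter Jun rose by 2.10 (standard error 0.38, edgeR adjusted p = 0.00422) while Phlda1 fell by 2.34 (standard error 0.54, edgeR adjusted p = 0.0151). Over all 5 lists, 27.9% of 68 genes tested were past the thresholds in the former comparison and 38.8% of 67 in the latter, beside 23.8% and 30.7% of all genes. In Rab30KO against Rab30 Ctrl, in Rab30L-/- against ff;ff and in DKO against Cpt2L-/- the lists gave 0 calls by edgeR. For the interaction edgeR called 2 of 69, or 2.9%, beside 4.06% of all genes. They were Socs4 at 0.76 (edgeR adjusted p = 0.0142) and Sos1 at 1.05 (edgeR adjusted p = 0.0136).

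**Figure D5:**
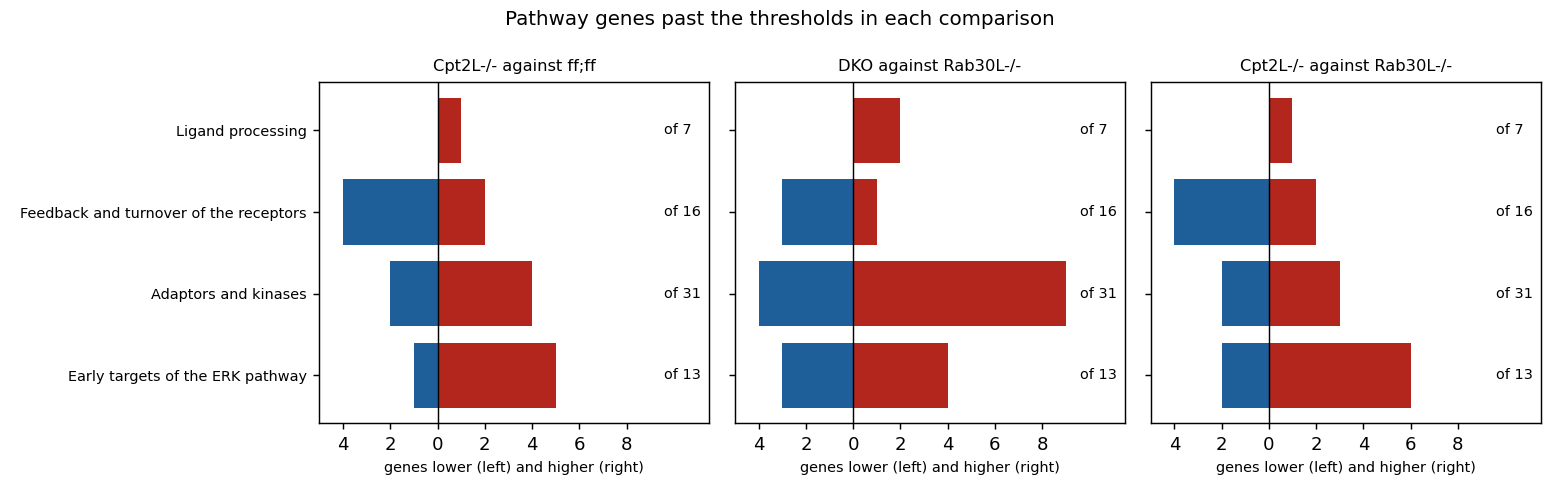
Number of genes past the thresholds that were lower (left, blue) and higher (right, red) in 4 pathway lists, with the number tested, for the 3 comparisons of livers without and with Cpt2. The groups of Cpt2L-/- against Rab30L-/- also differ in Rab30. Each list but ligand processing holds genes in both directions, and adaptors and kinases reach 9 higher in DKO against Rab30L-/-.

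Likeness to Nrg1 was taken on log2 CPM with a prior count of 0.5, over all 24 livers, including those that chose Nrg1. Among 11595 protein-coding genes with a mean of at least 1 CPM, the closest were Wdr73 (Pearson r = 0.94, Spearman rho = 0.86), Bhlhb9 (0.93 and 0.87), Plcl2 (0.93 and 0.83), Psat1 (0.93 and 0.82), which encodes an enzyme of serine synthesis, and Ermp1 (0.93 and 0.91). The livers fall into separate levels of Nrg1 by Cpt2, which these values include. Within the 8 livers without Cpt2, r was 0.79 for Psat1, 0.65 for Plcl2, 0.49 for Wdr73, 0.11 for Ermp1 and -0.41 for Bhlhb9. Within the other 16 livers, where Nrg1 had at most 6 counts, r was 0.76 for Bhlhb9, 0.72 for Ermp1, 0.66 for Wdr73, 0.56 for Plcl2 and 0.54 for Psat1. Psat1 was at 4.79 to 11.7 CPM in Cpt2L-/-, at 10.02, 6.78, 26.1 and 27.6 CPM in DKO, and at 1.09 CPM or less in the other 16 livers. Its 2 highest livers, DKO247 and DKO943, were also the 2 highest for Nrg1.

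In these bulk samples fewer cells of a type and less RNA per cell cannot be told apart, and some markers of liver cell types differed with Cpt2, beside the 23.8% and 30.7% of all genes that did. Kupffer cell markers had a summed level of 135 to 210 CPM in Cpt2L-/- and 132 to 163.7 CPM in DKO, against 171 to 322 CPM in ff;ff and 226 to 627 CPM in Rab30L-/-, and 3 of 8 fell in Cpt2L-/- against ff;ff and 7 of 8 in DKO against Rab30L-/-. Hepatocyte markers had a summed level of 48717 to 61348 CPM in Cpt2L-/- and 68774 to 81678 CPM in DKO, against 98548 to 131268 CPM in ff;ff and 81995 to 99291 CPM in Rab30L-/-, and 2 of 6 fell in each of these comparisons. Alb made up most of this sum, with group means of 31485 CPM in Cpt2L-/- and 84465 CPM in ff;ff. Alb and Ttr were called in Cpt2L-/- against ff;ff, and Apoa1 and Ttr in DKO against Rab30L-/-. Of the bile duct markers, whose sum was 9.63 to 23.8 CPM in Cpt2L-/- and 12.3 to 21.2 CPM in DKO against 15.6 to 32.5 CPM in ff;ff and 18.04 to 32.2 CPM in Rab30L-/-, Sox9 fell in both. Of 7 endothelial markers 2 fell in the former and 1 rose in the latter, and of 8 stellate cell markers 0 were called in the former by edgeR and 1 fell in the latter. Schwann cell and nerve markers had a summed level of 1.79 to 4.96 CPM in all livers, and 0 of the 2 that passed the filter were called by edgeR in either. The part of other cell types in the changes of the ErbB genes was not tested.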

How the data were processed

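Libraries of liver RNA were made and sequenced by Novogene. Per the labels, the submitters' processing notes name HISAT2, DESeq2 and GRCm38 (mm10); the version of HISAT2, the counter, the annotation and the use of strand are not given in the sources used here. The authors deposited raw counts per gene, whole numbers without normalization, and FPKM values, whose formula is not stated. Their normalized table and their tables of fold changes and p-values were not used. The start and end listed for 9 of the 10 members were those of GENCODE M21.

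Counts were tested with edgeR 4.0.16 in R 4.3.3 (filterByExpr, TMM, glmQLFit with robust estimation, glmQLFTest) on the 8 libraries of a comparison, or 16 for the interaction, with Benjamini-Hochberg adjustment over all genes. A gene was called at an adjusted p below 0.05 when it also changed 1.2-fold or more (no fold for the interaction). Libraries of 11801027 to 24497738 counts set the precision, and intervals and limits of 3 counts over a group cover counting error only, since the reads carry no stated molecular identifiers and may repeat a molecule. Folds against such a limit leave out the counting error of the other group. Alternatives were DESeq2 1.42.0 (Wald test, and its size factors in edgeR), limma-voom (limma 3.58.1), all 24 libraries in one fit, other filters on low counts, no fold threshold and each library left out in turn. Exact permutation tests used SciPy 1.17.1. The edgeR, DESeq2 and limma-voom fits were run on simulated data in which only genes with many counts were changed. Those runs say nothing of the fits for genes at few counts.

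The members and the lists were chosen with earlier results of these data known. Named were the 10 members, up to 2 genes per pathway list and comparison by size of change, the 5 genes most like Nrg1, and Rab30 and Cpt2. Each library is a separate mouse by its label.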

Additional observations from a re-analysis of the deposited data

Results flagged for a closer look

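In 60 groups of 4 livers (10 members in 6 groups), 4 had a liver far from the other 3 by Dixon's criterion at 95%, and chance flags about 1 group in 20. Erbb2 was at 1.87 CPM in the Rab30L-/- liver Rab30cff978 and at 1.06 to 1.13 CPM in the rest of the group. Egf was at 1.68 CPM in the Rab30 Ctrl liver WT281 and at 1.32 to 1.34 CPM in the rest. Areg was at 0.234 CPM, which is 3 counts, in the Rab30KO liver KO1 and had 0 counts in the rest. Tgfa was at 47.0 CPM in the Cpt2L-/- liver Cpt2166 and at 35.3 to 37.0 CPM in the rest, and leaving out any 1 liver, its log2 fold change in Cpt2L-/- against ff;ff stayed between 0.82 and 0.98.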

How the results depend on the processing

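No paired analysis was possible because the groups share no replicate numbers. Counts of members called moved by over 1.5 times under these settings; they include Nrg1, which passed the filter only through livers where it is high, and are a description only. Limma-voom called 1 member in Rab30L-/- against ff;ff and 1 for the interaction, where edgeR called 0. The filter of at least 10 counts in every library left 2 in DKO against Rab30L-/- in place of 4, since Nrg1 and Btc failed it. DESeq2's Wald test and no filter on low counts each called 5 in Cpt2L-/- against Rab30L-/- in place of 3, adding Btc and Areg, which had 0 counts in every Rab30L-/- liver. With each library left out, the interaction gave 0 to 1, the 1 being Egfr without ffff242. Nrg1 and the comparison of DKO with ff;ff are left out of what follows. No log2 fold change of another called member turned its sign, and each stayed called in every fit that tested it. Mean FPKM and CPM per kilobase differed by less than 1 SD for 60 of 60 member and group pairs. Spearman's rho shared 3 of the 5 genes most like Nrg1. Calls over all genes moved most in Rab30KO against Rab30 Ctrl (3; 0 to 12 by setting), Rab30L-/- against ff;ff (64; 25 to 309, and 23 to 93 with a library left out), DKO against Cpt2L-/- (360; 114 to 1535, and 57 to 445 with a library left out), the interaction (571; up to 1294, and 300 to 679 with a library left out) and DKO against ff;ff (2157; 3742 by limma-voom). At 0 to 6 counts per library in most groups, Nrg1 and Areg have folds set by few reads.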
